A study of Mus musculus with 4 samples.

Results

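The expression of 10 genes of intestinal iron handling was examined in mouse small intestinal (SI) organoids that overexpressed miR-181a-5p. The genes were Cybrd1 and Slc11a2 (apical reduction and uptake of iron), Slc40a1 and Heph (export), Tfrc (uptake of transferrin-bound iron), Fth1 and Ftl1 (storage), Aco1 and Ireb2 (iron sensing) and Hmox1 (breakdown of heme). They are 10 of the 55487 genes listed in the deposited tables, and all 10 were among the 17155 genes that passed the filter on low counts. Slc40a1 was chosen by its level in these same libraries, which was close to 0 with the mimic, so its values are described here without a test. The other 9 were chosen for their known roles.

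SI organoids are epithelial cultures that grow from isolated crypts and contain stem cells and their differentiated progeny. The organoids of 2 libraries carried a lentivirus expressing a miRNA mimic control (replicates 1 and 2), and those of 2 libraries carried a lentivirus expressing the miR-181a-5p mimic (replicates 3 and 4). Both groups were infected and both were kept in puromycin at 2 μg/ml, which kills cells without the vector, so neither group represents untreated organoids. The strain, sex and age of the mice, and whether replicate libraries were transduced separately, are not given in the sources used here, so the spread between libraries may be technical.

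Enterocytes take up dietary iron at their apical membrane, where the reductase encoded by Cybrd1 delivers ferrous iron to the transporter DMT1 (Slc11a2). Iron leaves the cell on the basolateral side through ferroportin (Slc40a1), the known exporter of iron from animal cells, and is oxidized by hephaestin (Heph) so that it can bind transferrin. Iron that is not exported is held in ferritin, a shell of heavy (Fth1) and light (Ftl1) chains. Iron regulatory proteins, encoded by Aco1 and Ireb2, bind hairpins in mRNAs, the iron-responsive elements (IREs). This binding blocks translation where the hairpin lies in the 5′ UTR and stabilizes the mRNA where it lies in the 3′ UTR, as in Tfrc.

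The miRNA that was overexpressed is shown first because pairing of its seed, bases 2 to 8, with an mRNA is the usual basis of targeting. The capitals mark the seed in the RefSeq sequence (GRCm38.p6), which is the same for Mir181a-1 on chromosome 1 and Mir181a-2 on chromosome 2.
miR-181a-5p: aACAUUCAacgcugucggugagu

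The matching DNA letters, TGAATGT (a 7mer-m8 site), were searched on the transcript strand in the annotated UTRs of the 10 genes. The 3′ UTRs of Slc40a1 and Ireb2 held 1 match each, and those of the other 8 genes held 0. In the lines that follow, a window of 30 bases is given with the match in capitals, from chr1:45908913-45908942 on the minus strand for Slc40a1 and from chr9:54911789-54911818 on the plus strand for Ireb2 (GRCm38).
Slc40a1 3′ UTR: tagttagataaTGAATGTtatccttattaa
Ireb2 3′ UTR: aatcagtattcTGAATGTagcacagttacc

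In Ireb2 the match is followed by an A, which makes it an 8mer site, and in Slc40a1 it is followed by a T. Among 12816 tested genes with a 3′ UTR, 18.3% held the 7 letters and 6.04% held the 8mer, so a match is common. A match describes the letters of the UTR and does not show that the site was used.

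IRE-like hairpins were sought as a C, any 5 bases, CAGTG and any 6 bases on the transcript strand, with at least 4 of 5 stem positions able to pair (G with U included). The hairpins are shown because IREs are the known route by which iron acts on mRNAs of this pathway, and a match describes the letters only. The capitals mark the loop CAGTG and the base after it. The windows lie in 5′ UTRs for Slc40a1 (chr1:45925464-45925493, minus strand), Fth1 (chr19:9982732-9982761, plus strand) and Ftl1 (chr7:45459778-45459807, minus strand). They lie in 3′ UTRs for Slc11a2 (chr15:100395152-100395181, minus strand) and Tfrc (chr16:32631219-32631248, plus strand), the latter being the first of 4 hairpins in that UTR.
Slc40a1 5′ UTR: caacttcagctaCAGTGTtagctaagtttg
Fth1 5′ UTR: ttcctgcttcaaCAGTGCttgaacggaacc
Ftl1 5′ UTR: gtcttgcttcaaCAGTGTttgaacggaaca
Slc11a2 3′ UTR: agccatcagagcCAGTGTgtttctatggtt
Tfrc 3′ UTR: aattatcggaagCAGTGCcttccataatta

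The Slc11a2 hairpin paired at 4 of the 5 stem positions and the others at 5. The same pattern was present in 0.876% of 11870 tested genes with a 5′ UTR and in 4.97% of 12816 with a 3′ UTR. Cybrd1, Heph, Aco1, Ireb2 and Hmox1 held no match, which says only that these letters were not in their annotated UTRs. Counts per gene do not separate the transcripts of Slc11a2 or Slc40a1 with a hairpin from those without it.

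The libraries held 31104884 to 38111731 expected counts, and the biological coefficient of variation shared by all genes was 0.13. Summed over 7 epithelial markers, the level was 1994 to 2400 TPM (a level corrected for gene length and library size), and 0 of these markers passed edgeR's test (2 at an unadjusted p under 0.05). Of 10 macrophage and leukocyte markers, Ptprc, Adgre1, Cd163, Fcgr1 and Spic were at or below 0.05 TPM in all 4 libraries, and the list summed to 4.57 to 5.94 TPM. Of its 5 tested genes, 0 passed edgeR's test and 1, Itgam, was higher at an unadjusted p under 0.05. Itgam was at 0.38 and 0.64 TPM in the controls and at 0.86 and 1.3 TPM with the mimic. Of 7 erythroid markers, the globin genes were listed at 0, and of 9 mesenchymal and endothelial markers, Col1a2, Col3a1, Dcn and Cdh5 were listed at 0. The summed mesenchymal and endothelial level was 2.65 to 4.47 TPM in the controls and 4.45 to 7.65 TPM with the mimic, most of it Vim. Levels below are TMM-normalized CPM (counts scaled to library size) unless TPM is stated.

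The reductase gene Cybrd1 and the transporter gene Slc11a2, which act in sequence at the apical membrane, were both lower in each mimic library than in each control library. The control libraries differed from each other by more than 2-fold in both genes, as did the mimic libraries, and neither gene passed the test after adjustment over all genes. Of the 9 genes chosen for their role, 0 passed edgeR's quasi-likelihood test at an adjusted p of 0.05 (Benjamini-Hochberg over all genes), against 3.57% of all 17155 genes tested. At an unadjusted p under 0.05 there were 2 of the 9, these same genes, against 24.8% of all genes. DESeq2 gave 0 of the 9, beside 4.41% of 29212 genes, since it was run without the filter on low counts. The exact test of edgeR gave 2, beside 10.4% of 17155 genes. The median log2 fold change of the 9 genes was 0.00025, beside -0.01 over all genes tested.

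**Figure D1:**
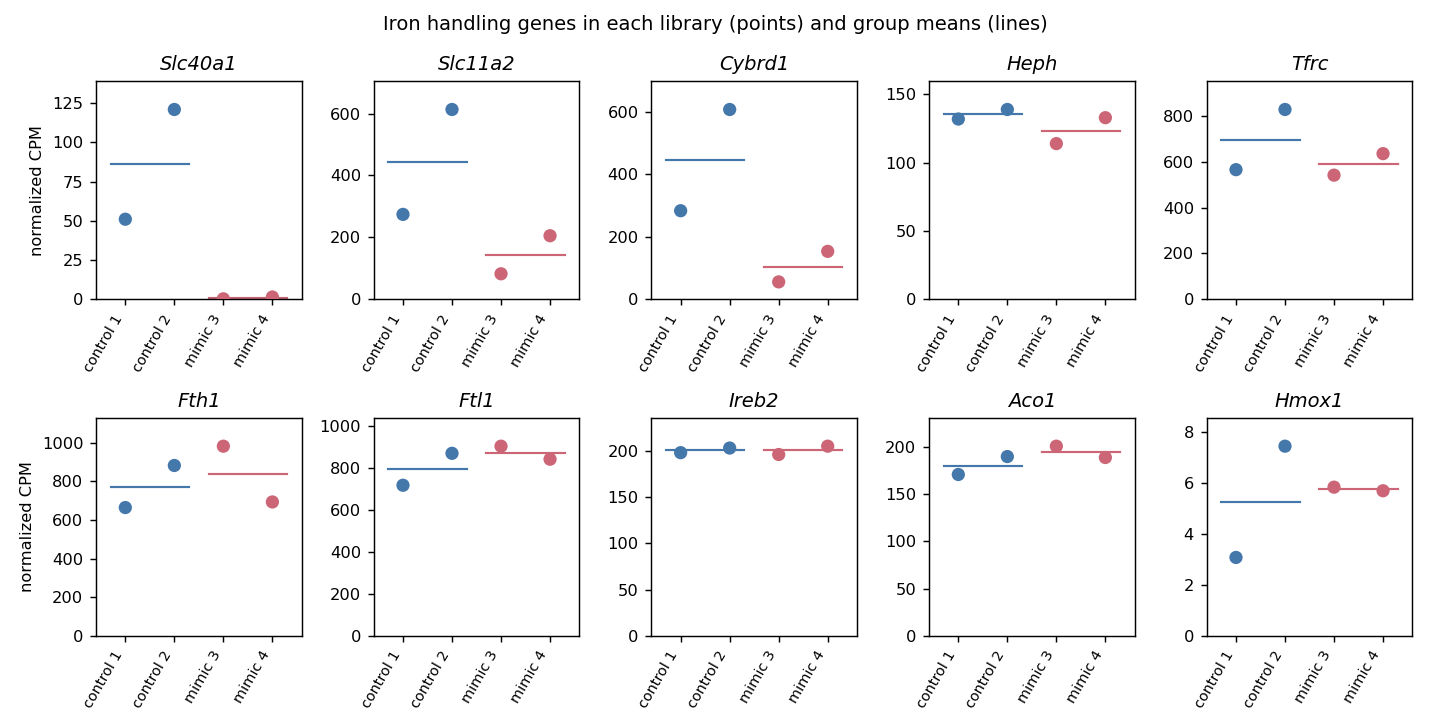
Normalized CPM (vertical axes, each starting at 0) of the 10 iron handling genes in the 2 mimic control libraries (blue) and the 2 miR-181a-5p mimic libraries (red), with points for libraries and lines for group means. Slc40a1, Slc11a2 and Cybrd1 are lower in both mimic libraries than in both controls, and in the other 7 genes the groups overlap.

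Cybrd1 (ENSMUSG00000027015, chromosome 2 from 71117923 to 71142926) was at 283 and 607 CPM in the controls and at 55.3 and 153 CPM with the mimic. The groups did not overlap, since the higher mimic library lay below the lower control library. Means were 445 ± 230 and 104 ± 69.4 CPM (SD, n = 2). The log2 fold change was -2.09 (SE 0.49, 95% interval -3.24 to -0.94), a 4.26-fold lower level, with an edgeR adjusted p of 0.0634. With edgeR's exact test Cybrd1 was past the threshold, as it was when any single library was left out of the quasi-likelihood fit, with log2 fold changes of -3.00 to -1.43.

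Slc11a2 (ENSMUSG00000023030, chromosome 15 from 100387898 to 100425072) was at 274 and 613 CPM in the controls and at 82 and 205 CPM with the mimic. Again the groups did not overlap, and the second control library was the highest of the 4. Means were 444 ± 240 and 144 ± 87.1 CPM (SD, n = 2). The log2 fold change was -1.63 (SE 0.47, 95% interval -2.71 to -0.54), a 3.09-fold lower level, with an edgeR adjusted p of 0.095. It was past the threshold with edgeR's exact test, without control replicate 1 (log2 fold change -2.10) and without mimic replicate 4 (-2.43). Groups that did not overlap, with the mimic lower, were found in 29.5% of all genes tested, against these 2 of the 9. In bulk RNA, a smaller share of cells that express a gene and less mRNA per cell cannot be told apart.

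Slc40a1 (ENSMUSG00000025993, chromosome 1 from 45908068 to 45926523) was represented by 1956 and 3754 counts in the control libraries but by 7 and 49 counts in the mimic libraries. In CPM these were 51 and 121 in the controls, against 0.224 and 1.38 with the mimic, so every control library exceeded every mimic library, and the ferroportin mRNA was detected in all 4. The fitted log2 fold change was -6.69, a level 104-fold lower. As a description of the gene's rank, 8 of the 17155 genes (0.0466%), Slc40a1 included, had a log2 fold change as low or lower. The size rests on few counts with the mimic: it was -8.56 without mimic replicate 4 and -5.93 at the other end of the range over left-out libraries, and -4.60 on the log2(TPM + 1) scale.

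Heph, whose product oxidizes the iron that ferroportin exports, was at 132 and 139 CPM in the controls and at 114 and 133 CPM with the mimic. The ranges overlapped. The log2 fold change was -0.13 (SE 0.11, 95% interval -0.38 to 0.12, edgeR adjusted p 0.473), which as a fold, mimic over control, is an interval of 0.767 to 1.08. Of the export genes, then, Slc40a1 differed greatly in level and Heph did not pass the test.

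Tfrc, the transferrin receptor gene, was at 566 and 829 CPM in the controls and at 542 and 636 CPM with the mimic, with both mimic libraries below the control mean and the groups overlapping. Its log2 fold change was -0.24 (SE 0.18, 95% interval -0.67 to 0.18, edgeR adjusted p 0.445). Without control replicate 2 the sign turned, to 0.06.

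The ferritin genes had the highest levels of the 10. The heavy chain gene Fth1 was at 665 and 883 CPM in the controls and at 983 and 694 CPM with the mimic, with the mimic libraries on either side of the higher control. The light chain gene Ftl1 was at 717 and 869 CPM in the controls and at 903 and 841 CPM with the mimic. Neither gene passed the test, with log2 fold changes of 0.12 for Fth1 (SE 0.20, 95% interval -0.34 to 0.57, edgeR adjusted p 0.751) and 0.14 for Ftl1 (SE 0.13, 95% interval -0.16 to 0.44, edgeR adjusted p 0.541). The sign of Fth1 turned to -0.08 without control replicate 1 and to -0.15 without mimic replicate 3. Ferritin protein is set largely by translation, which these counts do not measure.

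In TPM, Fth1 and Ftl1 together reached 1909 and 2474 in the controls, against 2670 and 2333 with the mimic. The ratio of Fth1 to Ftl1 was 0.957 and 1.07 in the controls, against 1.16 and 0.856 with the mimic, so neither chain dominated in any library and the groups overlapped. Reads of the ferritin genes are uncertain because near-identical processed copies exist. The copy Ftl1-ps1 was assigned 770 and 817 expected counts in the controls, against 988 and 1023 with the mimic, beside 26917 to 29950 counts for Ftl1. Adding the copies to their genes changed no call.

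The genes of the iron regulatory proteins had the smallest range over the 4 libraries. Ireb2 was at 198 and 203 CPM in the controls and at 196 and 205 CPM with the mimic, a spread of 1.04-fold over the 4 libraries. Its log2 fold change was 0.00025 (SE 0.09, 95% interval -0.21 to 0.21, edgeR adjusted p 0.999). Its 3′ UTR holds the 8mer match shown above, and whether that site was used was not tested. Aco1 was at 171 and 190 CPM in the controls and at 201 and 189 CPM with the mimic, with a log2 fold change of 0.11 (SE 0.10, 95% interval -0.12 to 0.34, edgeR adjusted p 0.518). The ratio of Aco1 to Ireb2 in TPM was 1.35 and 1.39 in the controls, against 1.58 and 1.44 with the mimic.

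Hmox1, the inducible heme oxygenase gene, was the least abundant of the 10 in the controls, at 3.08 and 7.45 CPM, and was at 5.84 and 5.7 CPM with the mimic. The mimic libraries lay between the controls. Its log2 fold change of 0.15 had the widest interval of the genes whose groups overlapped (SE 0.37, 95% interval -0.71 to 1.01, edgeR adjusted p 0.834). It was -0.38 without control replicate 1 and 0.91 without control replicate 2, and in the latter case it was past the threshold with an edgeR adjusted p of 0.0447 (0.0447 to 0.919 over all alternatives).

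**Figure D2:**
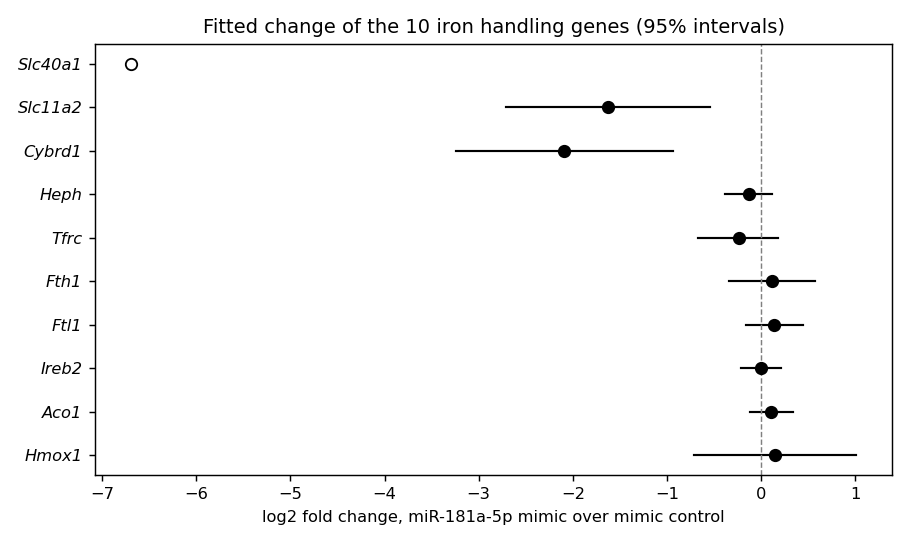
Log2 fold change of each gene, mimic over control (horizontal axis), with its 95% interval as a line. Slc40a1, shown as an open circle without an interval because it was chosen for this difference, lies at -6.69. Slc11a2 and Cybrd1 lie below 0 with wide intervals, and the intervals of the other 7 genes cross 0.

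The 3 genes that were lower with the mimic also differed by more than 2-fold between libraries of the same group, in both groups, a comparison chosen after the values were seen. Control replicate 2 exceeded control replicate 1 by 2.37-fold for Slc40a1, 2.24-fold for Slc11a2 and 2.15-fold for Cybrd1. Mimic replicate 4 exceeded mimic replicate 3 by 6.16-fold, 2.5-fold and 2.77-fold for the same genes. Both ratios were at least 2 in these 3 of the 10 genes and in 33 of the 17155 genes tested (0.192%). That share counts only genes higher in control replicate 2 and also higher in mimic replicate 4. Genes that differed by 2-fold in another direction, such as Alpi (ratios 2.79 and 0.438), are left out of it. The groups share no replicate number, so the direction is arbitrary and the share understates how common such spread is. Hmox1 differed 2.42-fold between the controls and 0.976-fold between the mimic libraries. For Heph, Aco1 and Ireb2 the ratios lay between 0.94 and 1.16.

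**Figure D3:**
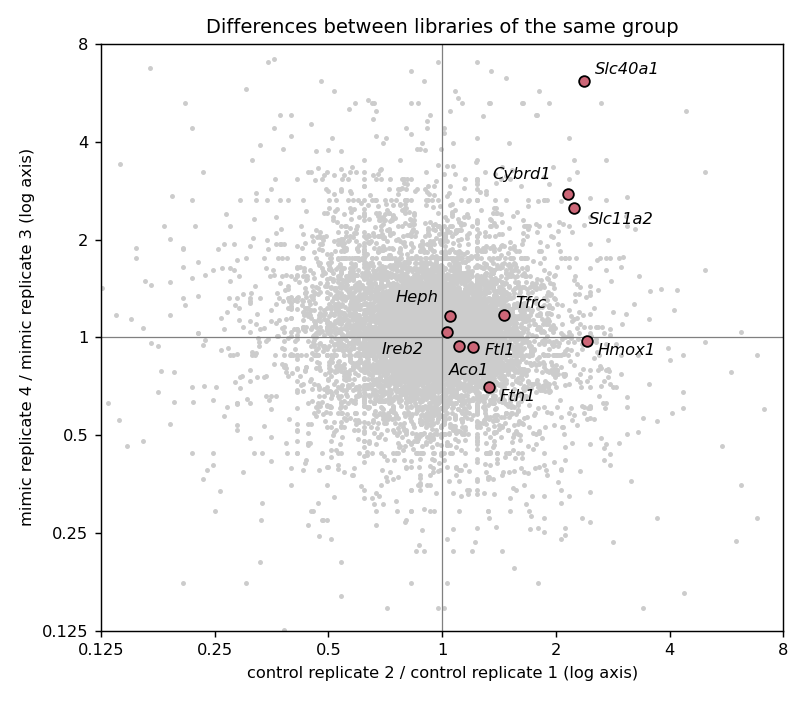
Ratio of control replicate 2 to control replicate 1 (horizontal, log axis) against the ratio of mimic replicate 4 to mimic replicate 3 (vertical, log axis), with the 10 genes in red and 17029 of the tested genes in grey. Genes with a ratio outside 0.125 to 8, or without counts in a library, are not drawn. Slc40a1, Slc11a2 and Cybrd1 lie at the upper right, with both ratios above 2.

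The ratios of these 3 genes to each other varied less within a group than the levels they were formed from. In TPM, Slc11a2 exceeded Slc40a1 by 5.98-fold and 5.85-fold in the controls and by 329-fold and 157-fold with the mimic. Cybrd1 exceeded Slc40a1 by 3.04-fold and 2.81-fold in the controls and by 89.4-fold and 59.2-fold with the mimic. The rise of both ratios over Slc40a1 follows from the choice of that gene for its low level with the mimic. With the mimic these ratios rest on 7 and 49 counts of Slc40a1. Slc11a2 to Cybrd1 was 1.97 and 2.08 in the controls, against 3.68 and 2.65 with the mimic.

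Markers of enterocytes and of intestinal region are given beside these differences. Of 5 enterocyte genes (Alpi, Apoa4, Fabp1, Vil1 and Krt20), 0 passed edgeR's test (1 at an unadjusted p under 0.05). They are among the markers the study used and were set beside the iron genes after the values were seen. The 1 gene was Fabp1, with a log2 fold change of -0.91 and an edgeR adjusted p of 0.109. The study's own edgeR analysis listed Fabp1 as lower with an FDR under 0.05. The summed level of the 5 genes was 1526 and 2678 TPM in the controls and 1416 and 1300 TPM with the mimic. Both mimic libraries thus lay below both controls in the sum, to which Fabp1 contributed most. The median log2 fold change of the 5 genes was -0.56. Iron uptake is greatest in the duodenum, and 2 of the 5 tested genes of a proximal SI list were lower past the threshold, against 2.29% of all genes. These were the transcription factor genes Pdx1 (5.04 and 7.72 TPM in the controls, 0.75 and 0.67 TPM with the mimic, edgeR adjusted p 0.00499) and Onecut2 (log2 fold change -1.18, edgeR adjusted p 0.00473), named after their values were seen. Of the other 3, Lct had a difference of the opposite sign that did not pass, at 8.19 and 17.1 TPM in the controls and at 21.6 and 20.6 TPM with the mimic (log2 fold change 0.69, edgeR adjusted p 0.187). In a distal SI list, 1 of the 5 tested genes, Osr2, was higher (log2 fold change 1.32, edgeR adjusted p 0.0121), against 1.28% of all genes. Fgf15 (1.60), Slc10a2 (1.19) and Guca2a (0.38) of that list were also higher but did not pass (edgeR adjusted p 0.0884, 0.123 and 0.177). At an unadjusted p under 0.05 there were 4 of the 5 proximal genes (3 lower, 1 higher), against 24.8% of all genes. Of the 5 distal genes there were also 4 (0 lower, 4 higher). The summed proximal level was 1068 and 1885 TPM in the controls and 950 and 738 TPM with the mimic. Most of it was Fabp1 (948 and 1749 TPM in the controls, 843 and 636 TPM with the mimic). The summed distal level was 363 and 379 TPM in the controls and 369 and 449 TPM with the mimic. Most of it was Muc13 (295 and 305 TPM in the controls, 272 and 321 TPM with the mimic, log2 fold change -0.08). Fabp6 of the distal list was at or below 0.1 TPM in every library, and Cyp8b1 of the proximal list was listed at 0. The part of cell composition or regional identity in the iron genes' differences was not tested.

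On the per-length TPM scale, the order in the controls was Fth1, Ftl1, Slc11a2, Tfrc, Cybrd1, Aco1, Ireb2, Heph, Slc40a1 and Hmox1. The means ran from 1105 ± 242 TPM for Fth1 to 4.25 ± 2.53 TPM for Hmox1 (SD, n = 2). Neighbours in this order overlapped for Fth1 and Ftl1, for Slc11a2 and Tfrc, and for Heph and Slc40a1, and otherwise both libraries of a gene lay above both of the next. Slc40a1 was at 20.9 and 49.2 TPM in the controls, around the level of Heph at 35 and 37 TPM.

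With the mimic the order was Fth1, Ftl1, Tfrc, Slc11a2, Aco1, Ireb2, Heph, Cybrd1, Hmox1 and Slc40a1. Cybrd1 moved from the fifth to the eighth place, at 12.5 and 37.9 TPM, which overlapped Heph at 29.9 and 38 TPM. Slc40a1 was last, at 0.14 and 0.64 TPM, below Hmox1 at 4.71 and 5.02 TPM. Neighbours overlapped for Fth1 and Ftl1, for Slc11a2 and Aco1, and for Heph and Cybrd1.

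**Figure D4:**
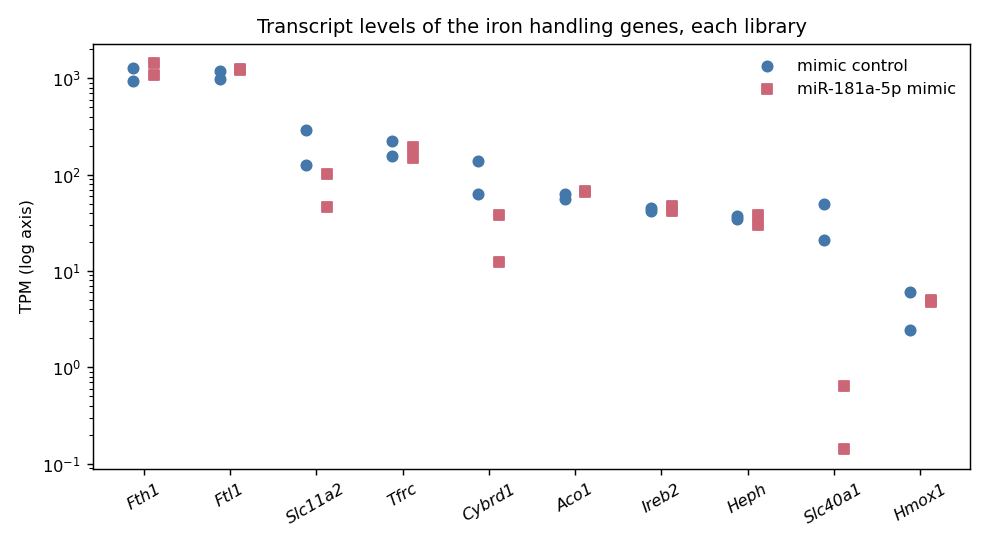
TPM (vertical, log axis) of the 10 genes in order of their mean in the controls, with circles for the 2 mimic control libraries and squares for the 2 miR-181a-5p mimic libraries. Fth1 and Ftl1 stand at 934 TPM or more in every library, whereas Slc40a1 drops from 20.9 and 49.2 TPM to 0.14 and 0.64 TPM.

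A wider set of 84 genes in 7 lists covered heme, other iron uptake routes, iron chaperones, the hepcidin axis, hypoxia-inducible factors, mitochondrial iron and regulators of Hmox1. Of these, 75 were tested, of which 0 were higher and 1 was lower past the threshold, 1.33% against 3.57% of all genes tested. DESeq2 gave 5 genes, beside 1288 of the 29212 genes it tested (4.41%). Those 29212 include genes below the filter on low counts, so 4.41% is not a like background for the 75. The exact test of edgeR gave 8, beside 10.4% of 17155 genes. At an unadjusted p under 0.05 there were 18 (24%), 6 higher and 12 lower, against 24.8% of all genes. The median log2 fold change of the 75 was 0.02. In edgeR's quasi-likelihood test the shares of 1.33% and 24% lie near or below those of all genes.

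The gene that passed was Epas1 (chromosome 17 from 86753700 to 86833410), which encodes HIF-2α, a factor known to drive transcription of iron absorption genes in enterocytes. Epas1 was at 10.6 and 11.3 TPM in the controls and at 5.6 and 7.3 TPM with the mimic, and the groups did not overlap. The log2 fold change was -0.90 (SE 0.14, 95% interval -1.23 to -0.56), with an edgeR adjusted p of 0.0251. It was not past the threshold without the filter on low counts or in the fits to TPM, and over all alternatives the adjusted p ranged from 5.61e-06 to 0.317. The annotated 3′ UTR of Epas1 held 0 matches to TGAATGT, and shorter or shifted matches to the miR-181a-5p seed were not searched. Among the other 13 genes of the hypoxia list, the most abundant, Ndrg1, had a log2 fold change of -0.08 (SE 0.24, edgeR adjusted p 0.865).

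In the lists for heme (16 tested), other uptake routes (10 tested), chaperones and ferritin turnover (7 tested), export and hepcidin (7 tested), mitochondrial iron (15 tested) and Hmox1 regulators (6 tested), 0 genes passed edgeR's test in either direction. In the same order, 3, 4, 3, 3, 2 and 0 of them had an unadjusted p under 0.05. Their medians lay between -0.14 and 0.11 on the log2 scale. The most abundant gene of each list is given as an example of the levels. Cpox, an enzyme of heme synthesis, was at 74.5 and 103 TPM in the controls and at 88.5 and 107 TPM with the mimic. Slc39a14, a zinc transporter that also carries iron, was at 115 and 173 TPM in the controls and at 89.7 and 113 TPM with the mimic, with a log2 fold change of -0.54 (SE 0.19, edgeR adjusted p 0.137). The groups of Slc39a14 did not overlap, whereas those of Cpox did. The iron chaperone gene Pcbp2, the neogenin gene Neo1, the iron-sulfur assembly gene Isca1 and the stress regulator gene Nfe2l2 (NRF2) had log2 fold changes of -0.02, 0.34, 0.07 and 0.10.

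**Figure D5:**
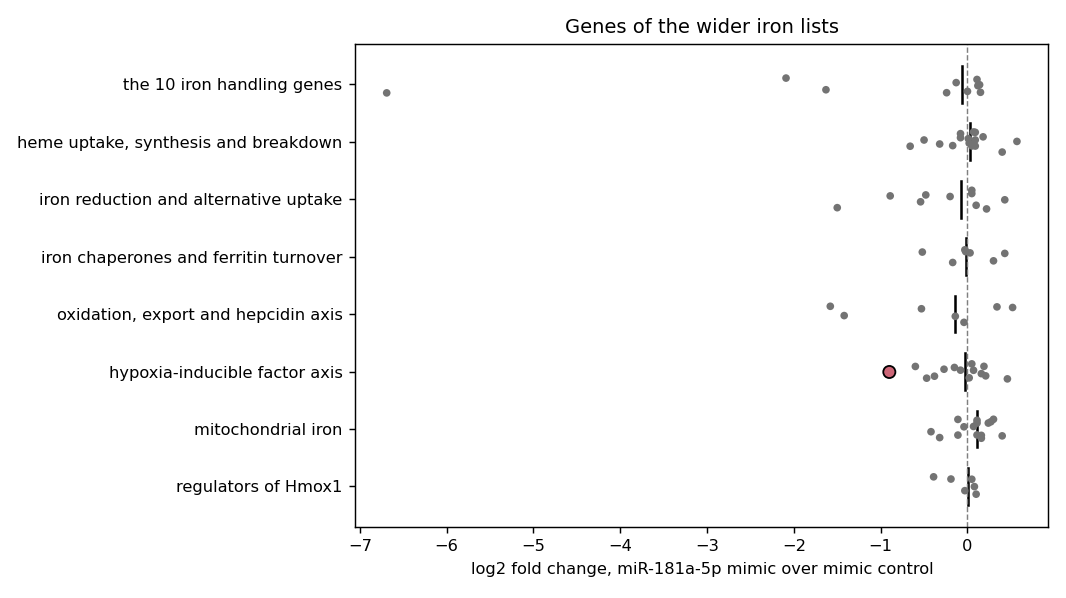
Log2 fold change, mimic over control (horizontal axis), of each tested gene of the 10 iron handling genes and of the 7 wider lists (rows), with black bars at each median. Epas1, at -0.90 in the hypoxia-inducible factor row, is the marked gene with an adjusted p under 0.05. Slc40a1, at -6.69 in the top row, is drawn without a test result because it was chosen for this difference.

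To see whether the difference extended beyond Slc40a1 on its chromosome, genes with any part within 1 Mb of either end of Slc40a1 were examined. Of 31 such genes, 3 passed the filter on low counts, and 0 passed edgeR's test (1 at an unadjusted p under 0.05). Wdr75, whose start lies 131 kb from that of Slc40a1, was at 37 and 43.2 CPM in the controls and at 53.3 and 49.3 CPM with the mimic (log2 fold change 0.35, SE 0.12, edgeR adjusted p 0.124). The zinc transporter gene Slc39a10 and the noncoding Gm28151 had log2 fold changes of 0.21 and 0.09.

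The genes whose profile over the 4 libraries was nearest to that of Slc40a1, by Euclidean distance between centred log2 CPM values, were Fras1 (1.80), Mmp14 (1.84), Reg1 (2.22), Dmbt1 (3.26) and Gm45234 (3.42). Fras1 encodes a protein of the basement membrane, Mmp14 a membrane-bound matrix metalloproteinase, Reg1 a secreted lectin and Dmbt1 a mucin-like scavenger receptor. Dmbt1, the most abundant of them, was at 400 and 786 CPM in the controls and at 69.6 and 72.5 CPM with the mimic. Cybrd1 ranked 14 and Slc11a2 ranked 53 among all tested genes, at distances of 3.93 and 4.43. These distances rest largely on the difference between groups, by which Slc40a1 was chosen.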

How the data were processed

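RNA-seq of mouse SI organoids with a miRNA mimic control (2 libraries) or a miR-181a-5p mimic (2 libraries) was analysed. Libraries held 31104884 to 38111731 counts, and precision is set by the spread between 2 libraries per group (an exact permutation test cannot go below p = 0.333). The authors trimmed single reads with Trimmomatic and quantified them with RSEM against GRCm38. They deposited expected counts per gene, which divide reads shared between genes and are not normalized, and TPM. The annotation release, the versions of these tools and the strand setting are not given in the sources used here. Libraries were depleted of ribosomal RNA according to the supplemental methods but selected for poly A RNA according to the labels. Another 3 columns per deposited table matched no sample and were not used. Without a strand setting, reads of Slc11a2 and Gm5475, Heph and Hsf3, and Ftl1 and Gm10252, which overlap on opposite strands, cannot be told apart.

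Expected counts were rounded and compared between groups in R 4.3.3 by edgeR 4.0.16 (filterByExpr, TMM factors, estimateDisp, glmQLFit with legacy=FALSE, glmQLFTest), with Benjamini-Hochberg adjustment over 17155 genes and a threshold of 0.05. The code was tested on simulated counts with known changes. Alternatives were DESeq2 1.42.0, edgeR's exact and robust tests, RLE factors or library totals, other filters, limma 3.58.1 on log2(TPM + 1) and log2(TPM + 0.1), ferritin genes summed with their pseudogenes, and each library left out. The legacy form of the quasi-likelihood test was chosen after seeing the data. Symbols were matched for 55141 of 55487 identifiers. Coordinates and UTRs of at least 50 bases came from GENCODE M21 (GRCm38). An erythroid and an enterocyte marker are not reported here, and their lists are given without them. The genes and lists were chosen with earlier results of these data known. Named genes are the 10 genes, wider-list genes with an adjusted p under 0.05, the most abundant gene of each wider list and the 5 genes nearest to Slc40a1 in profile (log2 CPM with an offset of 0.5), and others were named after their values were seen. Plots were drawn with matplotlib 3.10.9.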

Additional observations from a re-analysis of the deposited data

How the results depend on the processing

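With 2 libraries per group, calls moved widely with the fit. All genes past the threshold numbered 612, and 1288 with DESeq2, 1788 with edgeR's exact test, 192 without the filter on low counts, and 75, 27 and 2 with limma on filtered log2(TPM + 1), filtered log2(TPM + 0.1) and unfiltered log2(TPM + 1). Leaving out each library gave 373 to 2365 (the highest without control replicate 2). Of the 9 iron handling genes other than Slc40a1, 0 passed, against 2 with the exact test and 1 to 2 when a library was left out, where the lone library is assumed to vary like the other group. Of the wider lists, 1 gene passed, against 5 with DESeq2, 8 with the exact test, 2 with library totals, 0 without the filter and 0 in each limma fit, and 1 to 15 when a library was left out (15 without control replicate 2). The cause of these shifts was not tested.

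Slc40a1 was lower under every alternative that gave a value, at -4.60 in both log2(TPM + 1) fits and at -8.56 to -5.93 over left-out libraries, and the filter of at least 10 counts in every library removed it. Cybrd1 (-3.00 to -1.43) and Slc11a2 (-2.43 to -0.93) were also lower throughout. Signs turned for genes near 0: over left-out libraries Tfrc ran from -0.50 to 0.06, Fth1 from -0.15 to 0.35, Ftl1 from -0.00045 to 0.29, Ireb2 from -0.03 to 0.04 and Hmox1 from -0.38 to 0.91, and Ireb2 was -0.01 with at least 10 counts in every library. No paired analysis was possible because the groups share no replicate number.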

Other observations

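The genes given here with an adjusted p above 0.05 were chosen from the wider iron lists after the data were seen and did not pass the test after adjustment. Hamp2, a relative of the hepcidin gene, was at 9.13 and 7.15 TPM in the controls and at 2.1 and 4.28 TPM with the mimic (log2 fold change -1.42, SE 0.36, edgeR adjusted p 0.0737). Its counts were 96 and 60 in the control libraries but 18 and 38 in the mimic libraries. Tfr2, which encodes the second transferrin receptor, had a log2 fold change of -1.58 (edgeR adjusted p 0.11). This rests on 55 and 44 counts in the control libraries and 6 and 26 counts in the mimic libraries. In the hypoxia list, Hif1a was at 30.7 and 33.4 TPM in the controls and at 45.4 TPM in both mimic libraries (log2 fold change 0.46, SE 0.10, edgeR adjusted p 0.0525), whereas Epas1, which passed the test, was lower. Blvrb, the biliverdin reductase B gene of heme breakdown, had a log2 fold change of -0.66 (SE 0.14, edgeR adjusted p 0.0525). Ncoa4, the receptor that delivers ferritin for breakdown, had a log2 fold change of -0.52 (SE 0.18, edgeR adjusted p 0.141). Flvcr1 of the heme list (log2 fold change 0.57, edgeR adjusted p 0.129) and Nubp1 of the chaperone list (0.43, 0.104) were higher. Of the 75 tested genes of the wider lists, 6 were higher and 12 lower at an unadjusted p under 0.05.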
